A study of Mus musculus with 6 samples.

Results

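The 46 genes described here act in the DNA damage checkpoint and in DNA repair. They were chosen by gene name, under a rule that uses no measured value, although earlier results of these data were known, and all 46 were found among the 40481 genes of the count table. They comprise 18 genes of homologous recombination, 11 Fanconi genes, 2 mismatch repair genes, 2 end joining genes, 8 checkpoint genes, 3 genes of single-strand break and base excision repair, and the genes *Rad18* and *Ankle1*. RNA was sequenced from bone marrow-derived macrophages (BMDMs), which are bone marrow cells grown into macrophages in culture. The 3 wild-type libraries were compared with 3 libraries from Scd2-m/-m mice. These mice carry floxed alleles of *Scd2*, a stearoyl-CoA desaturase that puts a double bond into saturated fatty acids, and the lysozyme M-Cre transgene, which is active in myelomonocytic cells. Whether the wild-type mice carried the floxed alleles or the Cre transgene is not stated. Effects of the Cre transgene and of the loss of *Scd2* therefore cannot be told apart. No stimulus is named in the labels of either group. The mice used for the experiments were male and female and 2 to 5 months old, and the sex and age behind each library are not given. Nothing in the labels says whether the 3 libraries of a genotype came from separate animals or cultures, so p-values measure only the spread between these libraries, which may be technical.

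Cells meet DNA damage with sensors, checkpoint kinases and repair enzymes. The kinases ATM and ATR answer to broken ends and to stalled replication forks, and they act through CHEK2 and CHEK1 to hold the cell cycle. Homologous recombination copies the lost sequence from the sister chromatid and therefore works mostly in S and G2 phase, whereas end joining seals breaks in any phase, including in cells that have stopped dividing, as most mature macrophages have. The Fanconi pathway removes crosslinks between the strands, mismatch repair corrects replication errors, and base excision repair replaces damaged bases. Several recombination and Fanconi genes are known to be transcribed most in cells that replicate their DNA.

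Library totals ran from 46285176 to 57629638 counts. Levels are given in CPM, a library's counts on a gene scaled to a common library size by the trimmed mean of M values (TMM) method, and a gene was called higher or lower where edgeR's quasi-likelihood test gave a false discovery rate (FDR) below 0.05 over all 14778 genes tested. *Scd2* had 66.9, 77.8 and 62.7 CPM in the wild-type libraries and 59.5, 38.0 and 39.8 CPM in the Scd2-m/-m libraries. All Scd2-m/-m libraries were below all wild-type libraries, but Scd2-m/-m replicate 1 was close to the lowest wild-type value, and the log2 fold change of -0.59 (SE 0.195) had an FDR of 0.1 by edgeR. Without that library the log2 fold change was -0.83, with an FDR of 8.87e-05. Which exons are floxed is not stated in the labels or the study's methods, so how far counts over the whole gene report the deletion is unknown. By qPCR, in a larger set of wells, the study reported *Scd2* transcript in Scd2-m/-m macrophages far below that of wild type. Summed over the 8 macrophage markers, levels were 37500 to 38400 CPM in wild-type and 21400 to 22000 CPM in Scd2-m/-m libraries, and 4 of the 8 were called lower and 1 higher by edgeR. *Lyz2*, the lysozyme gene in which the Cre lies, had a log2 fold change of -1.33, and without it the sums of the other 7 were 15100 to 15400 and 12500 to 12900 CPM. Marker sums of other cells were far smaller. They were 10.3 to 11.3 against 24.4 to 31.5 CPM for 8 neutrophil genes (4 of 5 tested called higher), 2.22 to 2.66 against 4.04 to 5.4 CPM for 9 progenitor genes (3 of 7), 2.18 to 3.79 against 5.37 to 7.24 CPM for 6 B cell genes (2 of 3) and 1.03 to 1.48 against 2.25 to 3.85 CPM for 6 dendritic cell genes (3 of 6). Beside these calls, 9.65% of all genes tested were called higher and 7.84% lower by edgeR. Under 1 CPM in every library were 4 of the 8 neutrophil, 6 of the 9 progenitor, 5 of the 6 B cell and 6 of the 6 dendritic cell genes. Genes this low may have been tested only through the Scd2-m/-m libraries. *Flt3* is on both the progenitor and the dendritic cell list. T cell, erythroid and fibroblast sums overlapped between the genotypes. Only 2 of the 6 genes of each of these lists were tested, so few could be called. By edgeR, DESeq2 or limma-voom 0 were called, and 0 had an unadjusted edgeR p under 0.05. No gene of these lists was at 0 in every library.

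Of the 46 genes, 45 passed the filter on low counts, 13 rose in Scd2-m/-m macrophages and 0 fell by edgeR. The 13 that rose were *Brca1*, *Bard1*, *Rad51ap1*, *Rad54l*, *Rad54b*, *Fancd2*, *Fanci*, *Brip1*, *Xrcc5*, *Clspn*, *Neil3*, *Rad18* and *Ankle1*. They were 28.9% of the members tested, whereas 9.65% of all genes tested were called higher and 7.84% were called lower. DESeq2 and limma-voom likewise called 13 higher and 0 lower, and at an unadjusted p under 0.05 edgeR put 17 higher and 1, *Fance*, lower. A total of 9 rose by a log2 fold change above 1, which 2.31% of all genes did, and *Neil3* and *Ankle1* rose by more than 2, which 0.629% of all genes did, while 0.663% moved by more than 2 in either direction. All Scd2-m/-m libraries were above all wild-type libraries for 19 members tested (42.2%, beside 17.9% of all genes) and below them for 4 (8.89%, beside 17.0%). Over the members tested the log2 fold changes had a median of 0.067, beside 0.0039 over all genes tested, so the typical member moved little. In bulk RNA, fewer cells of a type and less RNA per cell cannot be told apart, and neither can more cells of a type and more RNA per cell. The markers of cell division moved with these genes: all 20 were called higher, and their summed level was 71.8 to 81.5 CPM in wild-type and 219 to 250 CPM in Scd2-m/-m libraries. The part of dividing cells, or of the other cell types above, in the rise of the repair genes was not tested.

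The members that rose were a small share of the transcripts of these genes. Summed over the 13, the level was 15.9 to 17.9 CPM in wild-type and 34.7 to 36.9 CPM in Scd2-m/-m libraries, a separation that follows from their choice as called genes. Summed over the 32 that were tested and not called, it was 445 to 457 CPM in wild-type and 439 to 450 CPM in Scd2-m/-m libraries, and these ranges overlapped. Of the 18 members tested with a mean below 3 CPM over all 6 libraries, 10 rose, or 55.6%, where 7.99% of all genes at that level were called higher. From 3 to 10 CPM, 3 of 13 rose (*Brca1*, *Rad54l* and *Rad18*), beside 12.9% of all genes. At 10 CPM or more, 0 of 14 were called by edgeR, DESeq2 or limma-voom (3 had an unadjusted p under 0.05 by edgeR), although 21.4% of all genes at that level were called in one direction or the other. The 95% intervals of all 14 lay within a log2 fold change of 0.5 on either side of 0. The members called higher thus had low counts in both genotypes. *Rad51ap1*, *Xrcc5* and *Ankle1* passed the filter, which asked for about 0.196 CPM in 3 libraries, only through the Scd2-m/-m libraries. They count in the 28.9% of members and in the 55.6% below 3 CPM given above. The 42 members that reached that level in every wild-type library included 10 of the 13 called, and the share of all such genes called was not computed. With at least 10 counts asked of every library, 11 of 42 members tested were called higher and 0 lower. In that setting 2501 of 13530 genes were called in one direction or the other, and the share called higher alone was not computed.

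**Figure D1:**
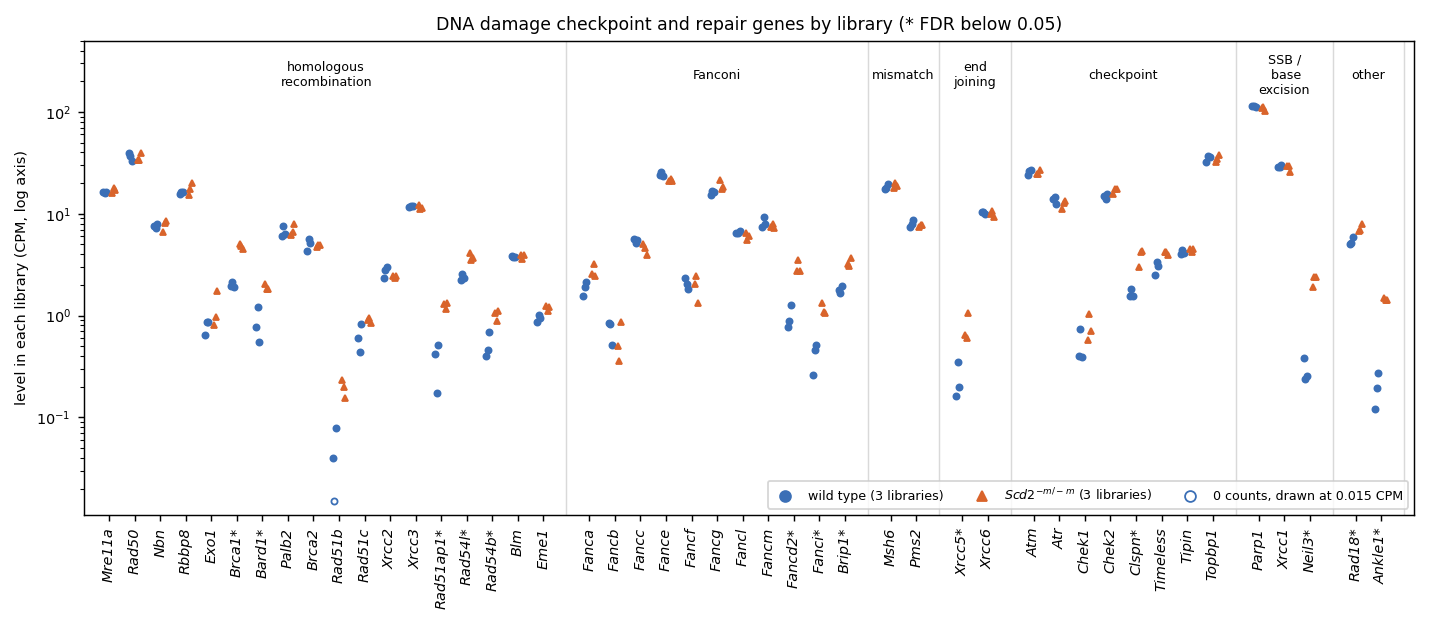
Level of each of the 46 genes in every library (CPM, log axis), grouped by pathway, with wild-type libraries as circles, Scd2-m/-m libraries as triangles and an asterisk for an FDR below 0.05. The 13 genes with an asterisk lie low on the axis with all triangles above all circles, whereas abundant members such as *Parp1*, at 102 to 115 CPM, sit at nearly the same height in both genotypes.

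**Figure D2:**
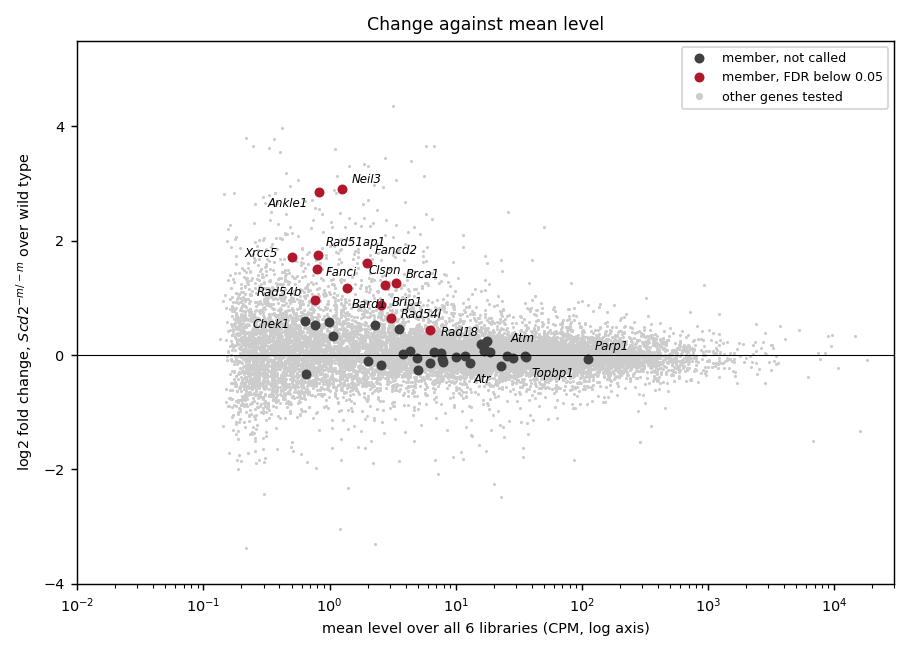
Log2 fold change (Scd2-m/-m over wild type) against the mean level over all 6 libraries (CPM, log axis) for all genes tested, with the repair and checkpoint genes in red where the FDR was below 0.05 and in dark grey otherwise. The members in red lie on the left, at 0.434 (*Rad18*) to 2.914 (*Neil3*) on the log2 scale, and the 14 members at 10 CPM or more lie close to 0.

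In homologous recombination, the first step is the sensing of a broken end by MRE11, RAD50 and NBN and its trimming with CtIP (encoded by *Rbbp8*) and EXO1. By edgeR, DESeq2 or limma-voom 0 of these 5 genes were called, and 0 had an unadjusted p under 0.05. *Rad50*, the recombination gene with the most transcript per length (6.77 CPM per kilobase of exon in wild type), had 39.5, 36.8 and 33.0 CPM in wild-type and 33.9, 33.5 and 39.2 CPM in Scd2-m/-m libraries, which overlapped. Its log2 fold change was -0.034, and those of *Mre11a*, *Nbn* and *Rbbp8* were 0.067, 0.033 and 0.12. *Exo1*, an exonuclease, was the exception in precision, with a log2 fold change of 0.57, a 95% interval of -0.096 to 1.24 and an FDR of 0.237 by edgeR, so these libraries allow both a small fall and a large rise.

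The BRCA group prepares broken ends for strand exchange, and it split. *Brca1*, whose product directs ends toward recombination, had 1.97, 2.12 and 1.89 CPM in wild-type and 5.05, 4.77 and 4.46 CPM in Scd2-m/-m libraries. The libraries did not overlap, and *Brca1* rose by a log2 fold change of 1.25 (SE 0.145, edgeR FDR 4.92e-05). *Bard1*, the partner with which BRCA1 forms a ubiquitin ligase, had 0.766, 1.21 and 0.551 CPM in wild-type and 2.06, 1.81 and 1.81 CPM in Scd2-m/-m libraries. Again no library overlapped, though the wild-type values varied widely, and the log2 fold change was 1.17 (SE 0.268, edgeR FDR 0.00786). *Brca2*, which works on the trimmed single strands, and *Palb2*, which joins BRCA1 to BRCA2, were not called. *Brca2* had 4.35, 5.62 and 5.17 CPM in wild-type and 4.68, 4.97 and 4.94 CPM in Scd2-m/-m libraries, with a log2 fold change of -0.053 (95% interval -0.33 to 0.23), and *Palb2* had one of 0.058.

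The 3 genes for factors that help strands pair all rose. *Rad51ap1*, which enhances strand invasion, had 0.423, 0.173 and 0.512 CPM in wild-type and 1.29, 1.15 and 1.32 CPM in Scd2-m/-m libraries. The highest wild-type library was well below the lowest Scd2-m/-m library, and the log2 fold change was 1.75 (SE 0.337, edgeR FDR 0.00263). *Rad54l*, which encodes a motor protein that moves along DNA, rose by 0.65 (SE 0.15, edgeR FDR 0.00833), and its relative *Rad54b* by 0.97 (SE 0.298, edgeR FDR 0.0382), each without overlap of the libraries. The call of *Rad54b* was lost on leaving out either wild-type replicate 1 or 2 or any Scd2-m/-m replicate, with FDRs of 0.0708 to 0.125 by edgeR. Exons of *Fsbp* on the same strand cover 35.77% of the exonic length of *Rad54b*, and exons of *Lrrc41* on the other strand cover 15.36% of that of *Rad54l*, so reads there could belong to either gene. *Fsbp* held 2, 2 and 2 counts in wild-type and 12, 4 and 6 counts in Scd2-m/-m libraries, and was not tested. It thus lay higher in the Scd2-m/-m libraries, as *Rad54b* did. *Lrrc41* was not called (log2 fold change 0.072).

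The genes *Rad51b*, *Rad51c*, *Xrcc2* and *Xrcc3*, whose products assist strand exchange, gave 0 calls among 3 tested by edgeR, DESeq2 or limma-voom, and 0 had an unadjusted p under 0.05. *Rad51b* was not tested because it had 2, 0 and 4 counts in wild-type and 13, 10 and 9 counts in Scd2-m/-m libraries, although the groups did not overlap. *Rad51c* had a log2 fold change of 0.52 (95% interval -0.12 to 1.17), and those of *Xrcc2* and *Xrcc3* were -0.17 and -0.024. The genes for enzymes that take apart joined molecules, the helicase gene *Blm* and the nuclease gene *Eme1*, had log2 fold changes of 0.018 and 0.33 and were not called.

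**Figure D3:**
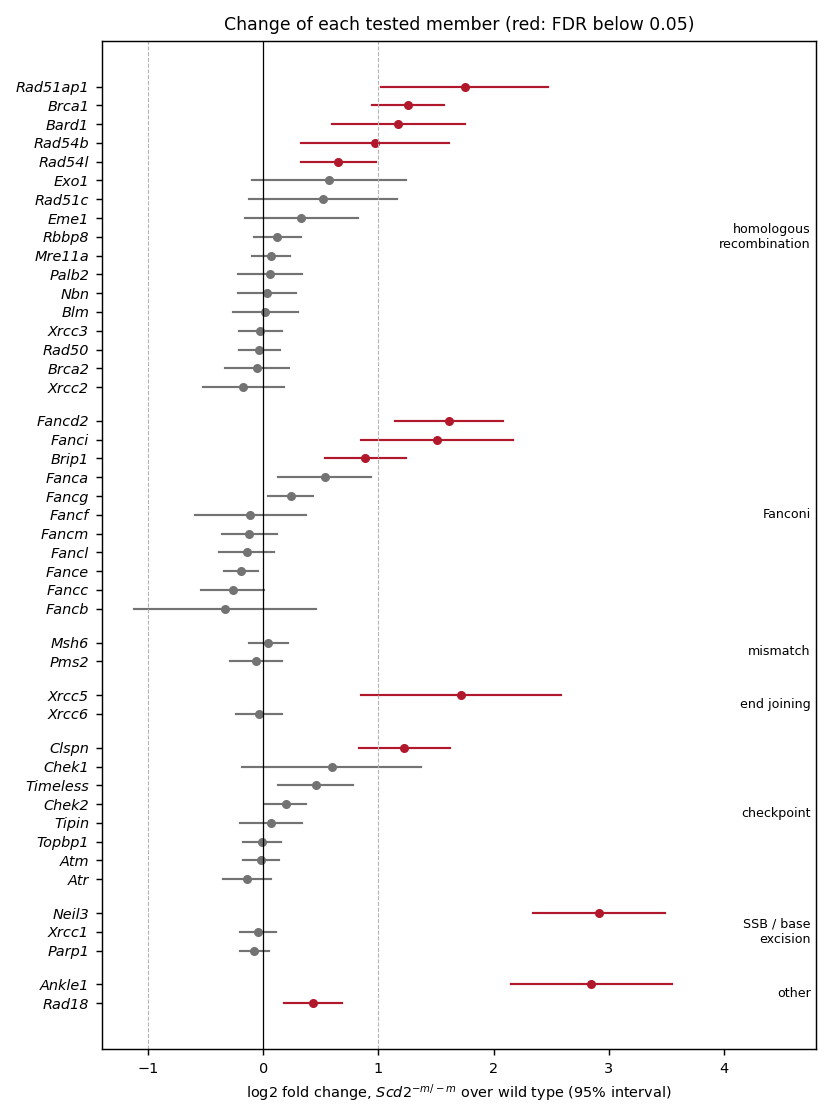
Log2 fold change (Scd2-m/-m over wild type) of the 45 genes tested, with 95% intervals as horizontal lines, in red where the FDR was below 0.05 and grouped by pathway, with dashed lines at -1 and 1. The intervals of *Brca1* (0.94 to 1.57) and *Fancd2* (1.14 to 2.09) lie far to the right of those of most other genes of their pathways, and *Exo1*, *Rad51c*, *Fancb* and *Chek1* have the widest intervals among the genes not called.

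In the Fanconi pathway a core complex puts ubiquitin on the FANCD2 and FANCI proteins, which then call in nucleases and recombination factors at the crosslink. The transcripts of the target pair rose, and those of the core complex were not called. *Fancd2* had 0.766, 0.889 and 1.26 CPM in wild-type and 2.74, 3.50 and 2.72 CPM in Scd2-m/-m libraries. Every Scd2-m/-m library was far above every wild-type library, and the log2 fold change was 1.61 (SE 0.219, edgeR FDR 0.000196). *Fanci* had 0.262, 0.455 and 0.512 CPM in wild-type and 1.34, 1.09 and 1.07 CPM in Scd2-m/-m libraries, again without overlap. Its log2 fold change was 1.51 (SE 0.309, edgeR FDR 0.00385). Exons of *Polg*, on the other strand, cover 15.95% of the exonic length of *Fanci*. *Polg* moved the other way, with a log2 fold change of -0.42 (edgeR FDR 0.0014). *Brip1*, which encodes a helicase bound by BRCA1, had 1.79, 1.67 and 1.95 CPM in wild-type and 3.23, 3.10 and 3.66 CPM in Scd2-m/-m libraries, and it rose by 0.88 (SE 0.164, edgeR FDR 0.00199).

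Of the 8 core complex genes, 0 were called by edgeR, DESeq2 or limma-voom, and at an unadjusted p under 0.05 2 were higher and 1 lower. Their log2 fold changes ran from -0.33 to 0.53, and the middle value was -0.13. *Fance*, the Fanconi gene with the most transcript per length (7.6 CPM per kilobase in wild type), had 23.8, 25.5 and 23.4 CPM in wild-type and 20.8, 21.7 and 21.2 CPM in Scd2-m/-m libraries. The groups did not overlap, but the log2 fold change was -0.20 (SE 0.069) with an FDR of 0.0701 by edgeR. *Fanca* and *Fancg* lay above wild type in every Scd2-m/-m library with log2 fold changes of 0.53 and 0.24 and edgeR FDRs of 0.0668 and 0.0871. *Fancc* and *Fancl* lay below wild type in every Scd2-m/-m library, with log2 fold changes of -0.27 and -0.14. *Fancf* and *Fancm* overlapped between the genotypes, at -0.11 and -0.12, and *Fancb*, at -0.33, had the widest 95% interval of the complex, -1.12 to 0.46. Exons of other genes on the other strand cover 16.43% of the exonic length of *Fancc*, 14.96% of *Fancf*, 13.7% of *Fancl* and 10.5% of *Fanca*. As with *Fanci*, reads there could belong to either gene.

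E2F factors, which drive genes of S phase, bind sites that fall within the looser pattern TTTNNCGC, where N is any base. For that reason the promoters were searched for these letters, and a match need not be an E2F site. RefSeq promoters (GRCm38.p6) were found for 38 of the 46 genes, 11 of them among the 13 called. In the 250 bases before the start, on either strand, TTTNNCGC occurred in 7 of the 38 (18.4%), in 2 of the 11 called and in 5 of the 26 not called, and in 7.2% of the 10188 promoters of genes tested. The other motifs searched, TTTGAA and ATTGG (letters of the CHR element and of the reverse CCAAT box found in promoters of G2 and M phase genes), occurred in 2 and 21 of the 38, and in 10.7% and 36.6% of genes tested. TTTGAA occurred in 2 of the 11 called (18.2%) and 0 of the 26 not called. ATTGG occurred in 6 of the 11 called and 14 of the 26 not called. *Bard1* and *Brip1* were the called genes with TTTNNCGC, and the stretches that hold it are shown 5′ to 3′ on the strand of the gene, with the match in capitals. That of *Bard1* lies on the minus strand at chr1:71103148-71103207 and its match begins 209 bases before the RefSeq start, but 35 bases before the GENCODE start at 71103146, which lies farther upstream. That of *Brip1* lies on the minus strand at chr11:86201364-86201393, its match begins 189 bases before both starts, and the stretch overlaps 2 annotated exons. A match is a description of the letters and shows no binding.
Bard1: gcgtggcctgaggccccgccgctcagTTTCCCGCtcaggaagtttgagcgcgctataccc
Brip1: ttgtcccagtcTTTTTCGCggggtggggtt

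Neither mismatch repair gene was called by edgeR, DESeq2 or limma-voom, or had an unadjusted p under 0.05. *Msh6*, whose product recognizes single mismatched bases, had 17.5, 17.9 and 19.7 CPM in wild-type and 18, 19.9 and 18.9 CPM in Scd2-m/-m libraries, which overlapped, and its log2 fold change was 0.045 (95% interval -0.12 to 0.21). *Pms2*, which encodes an endonuclease subunit, had a log2 fold change of -0.065 (95% interval -0.29 to 0.16).

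The genes for the subunits of Ku, the ring that binds broken ends for end joining, were far apart in level and in change. *Xrcc6*, for Ku70, had 10.4, 10.5 and 9.88 CPM in wild-type and 10.0, 10.7 and 9.36 CPM in Scd2-m/-m libraries. These overlapped, and the log2 fold change was -0.034 (95% interval -0.24 to 0.17). *Xrcc5*, for Ku80, had 8, 16 and 10 counts (0.161, 0.347 and 0.197 CPM) in wild-type and 36, 30 and 62 counts (0.645, 0.597 and 1.07 CPM) in Scd2-m/-m libraries. All Scd2-m/-m libraries were higher, most of all replicate 3, and the log2 fold change was 1.72 (SE 0.405, edgeR FDR 0.00952). Without Scd2-m/-m replicate 3 it was 1.40 with an edgeR FDR of 0.0597, and the call was lost. Per kilobase of exon the wild-type levels were 2.29 CPM for *Xrcc6* and 0.092 CPM for *Xrcc5*. Ku70 and Ku80 are known to work as a pair.

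Of the 4 checkpoint kinase genes 0 were called by edgeR, DESeq2 or limma-voom, and 1, *Chek2*, had an unadjusted p under 0.05. *Atm*, for the kinase that answers to double-strand breaks, had 24.1, 26.1 and 27.1 CPM in wild-type and 24.7, 24.6 and 27.1 CPM in Scd2-m/-m libraries. Its log2 fold change was -0.018, with a sign that turned on leaving out any of 3 libraries. *Atr*, for the kinase that answers to stalled forks, had 14.1, 14.5 and 12.6 CPM in wild-type and 11.1, 12.7 and 13.4 CPM in Scd2-m/-m libraries, and the libraries overlapped (log2 fold change -0.14, 95% interval -0.35 to 0.064). *Chek2*, the effector of ATM and the checkpoint gene with the most transcript per length (4.93 CPM per kilobase in wild type), had 14.8, 13.9 and 15.6 CPM in wild-type and 15.8, 17.6 and 17.4 CPM in Scd2-m/-m libraries. The groups just failed to overlap, and the log2 fold change of 0.19 had an FDR of 0.13 by edgeR. *Chek1*, the effector of ATR, had 0.403, 0.737 and 0.394 CPM in wild-type and 0.573, 1.03 and 0.705 CPM in Scd2-m/-m libraries. It overlapped, and its log2 fold change of 0.59 had a 95% interval of -0.18 to 1.37 and an FDR of 0.294 by edgeR.

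Claspin, encoded by *Clspn*, brings CHEK1 to ATR at stalled forks, and its gene was the one checkpoint gene that rose. It had 1.57, 1.82 and 1.55 CPM in wild-type and 3.03, 4.18 and 4.35 CPM in Scd2-m/-m libraries. The groups did not overlap, and the log2 fold change was 1.22 (SE 0.183, edgeR FDR 0.000393). *Timeless* and *Tipin* encode partners that steady the fork together with Claspin. *Timeless* had 2.50, 3.38 and 3.09 CPM in wild-type and 4.21, 4.20 and 3.89 CPM in Scd2-m/-m libraries, without overlap, and a log2 fold change of 0.46 with an edgeR FDR of 0.0524, just short of a call. *Tipin* and *Topbp1*, the activator of ATR, had log2 fold changes of 0.066 and -0.012 and overlapped.

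Among the genes of single-strand break and base excision repair, *Neil3* had the largest fitted rise of the members tested with all 6 libraries, and *Ankle1* had the larger one without wild-type replicate 2 (2.84 against 2.79), wild-type replicate 3 (3.17 against 2.82) or Scd2-m/-m replicate 3 (2.861 against 2.859). NEIL3 is a glycosylase that removes oxidized bases and unhooks some crosslinks, and it is known from dividing cells. It had 19, 11 and 13 counts (0.383, 0.239 and 0.256 CPM) in wild-type and 107, 119 and 139 counts (1.92, 2.37 and 2.39 CPM) in Scd2-m/-m libraries. The Scd2-m/-m libraries were far above all wild-type libraries, and the log2 fold change was 2.91 (SE 0.267, edgeR FDR 6.01e-06). *Parp1*, the break sensor that makes poly(ADP-ribose) and the member with the most transcript per length (21.5 CPM per kilobase in wild type), had 115, 114 and 112 CPM in wild-type and 110, 111 and 102 CPM in Scd2-m/-m libraries. It was below wild type in every Scd2-m/-m library, but by a log2 fold change of only -0.078 (95% interval -0.20 to 0.046), which edgeR did not call. *Xrcc1*, the scaffold of that repair, had a log2 fold change of -0.047 and overlapped.

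The remaining genes both rose. *Ankle1*, for an endonuclease that is best known from blood-forming tissue and from cutting DNA bridges between dividing cells, had 6, 9 and 14 counts (0.121, 0.195 and 0.275 CPM) in wild-type and 83, 71 and 82 counts (1.49, 1.41 and 1.41 CPM) in Scd2-m/-m libraries. The Scd2-m/-m libraries lay close together and far above wild type, and the log2 fold change was 2.85 (SE 0.325, edgeR FDR 4.39e-05). *Rad18*, for the ubiquitin ligase that marks PCNA so that forks can pass damage, had 5.00, 5.12 and 5.86 CPM in wild-type and 6.77, 6.94 and 7.86 CPM in Scd2-m/-m libraries. Of the genes called it had the most transcript per length (0.919 CPM per kilobase in wild type) and the smallest rise, with no overlap and a log2 fold change of 0.43 (SE 0.119, edgeR FDR 0.0217). Leaving out wild-type replicate 1 or 2 or Scd2-m/-m replicate 2 or 3 raised that FDR to 0.0617 to 0.0933 and ended the call.

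The other genes of these pathways were taken from 8 further lists with 137 genes, of which 136 were tested. In all, 18 were called higher and 4 lower, or 16.2% called, beside 17.5% of all genes tested, and the log2 fold changes had a median of 0.044. By direction, 13.2% were called higher, beside 9.65% of all genes, and 2.94% lower, beside 7.84%. Without wild-type replicate 2 the counts were 7 higher and 1 lower, and without Scd2-m/-m replicate 2 they were 10 higher and 2 lower. Of 37 other genes of recombination and the break response tested, 6 rose (16.2%) and 1 fell. *Dna2*, a nuclease of resection and of Okazaki fragments, rose by 0.72 (SE 0.086, edgeR FDR 6.67e-05). *Mdc1*, the break adaptor, was the one that fell, by 0.26 on the log2 scale, with an edgeR FDR of 0.0119. By edgeR 0 of the 10 other Fanconi genes, 0 of 5 other mismatch repair genes and 0 of 8 other end joining genes were called, with 1 gene of each list at an unadjusted p under 0.05. DESeq2 called 1 gene of these lists, the end joining gene *Dclre1c* (unadjusted p of 0.0631 by edgeR), and limma-voom 0.

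Of 16 other checkpoint genes 6 rose and 0 fell by edgeR, as by DESeq2 and limma-voom. The 6 were 37.5% of the list, beside 9.65% of all genes called higher, and 0 were lower at an unadjusted edgeR p under 0.05. *Cdc25c*, the phosphatase that activates CDK1, had 0.121, 0.0434 and 0.0984 CPM in wild-type and 0.627, 1.01 and 0.826 CPM in Scd2-m/-m libraries, a log2 fold change of 3.18 (SE 0.446, edgeR FDR 0.000246). Its wild-type libraries all lay below the filter level of about 0.196 CPM, so it was tested only through the Scd2-m/-m libraries. *Cdc25c* counts in the 37.5% given above. Its relative *Cdc25b* rose by 0.40 (edgeR FDR 0.00055), and *Pkmyt1*, the kinase that opposes both, by 0.94 (edgeR FDR 0.000605). In base excision repair 2 of 21 rose, or 9.52%, near the 9.65% of all genes. They were *Parp3*, by 0.44, and *Lig1*, the ligase of Okazaki fragments, by 0.26 (edgeR FDRs 0.000894 and 0.0438). In nucleotide excision repair, which cuts out bulky lesions, *Ercc2* fell, with a log2 fold change of -0.36 (edgeR FDR 0.0106). In that list 2 of 23 rose, among them *Cetn2* by 0.30 (edgeR FDR 0.0339), and their share of 8.7% was also near that of all genes. In translesion synthesis and direct reversal 2 of 16 rose, or 12.5%, beside 9.65% of all genes. They were *Zranb3*, a fork remodeller, by 0.50, and *Ube2b*, the partner of RAD18, by 0.26 (edgeR FDRs 0.0206 and 0.0368).

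The tumor suppressor p53 is activated by ATM, ATR and their effectors and drives genes of arrest and death, so its targets were read as a further list of 34 genes, 5 of which are also on a repair list. Of 33 tested, 7 were called higher and 4 lower, and the median of their log2 fold changes was 0.067. The calls thus lay in both directions, with 21.2% higher, beside 9.65% of all genes, and 12.1% lower, beside 7.84%. Without Scd2-m/-m replicate 2 the counts were 4 and 2. *Cdkn1a*, which encodes the p21 inhibitor and is the standard readout of p53, had 187, 183 and 193 CPM in wild-type and 186, 176 and 152 CPM in Scd2-m/-m libraries. It overlapped and was not called (log2 fold change -0.13, edgeR FDR 0.244). *Trp53* itself had a log2 fold change of 0.052 (edgeR FDR 0.647), and *Mdm2*, its ubiquitin ligase and target, rose by 0.24 (edgeR FDR 0.0117) from 89.6, 93.5 and 86.6 to 103, 110 and 106 CPM. Among the 5 calls with the smallest p, *Plk2*, a kinase, rose by 0.77 (edgeR FDR 1.07e-05), *Ckap2* by 2.24 (edgeR FDR 2.33e-05) and *Gtse1* by 0.99 (edgeR FDR 0.000355). The last pair encode proteins of the mitotic spindle and of G2 and S phase. *Aen*, an apoptotic nuclease, and *Btg2*, a brake on division, fell, with log2 fold changes of -0.51 and -0.29 (edgeR FDRs 0.00161 and 0.00596).

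**Figure D4:**
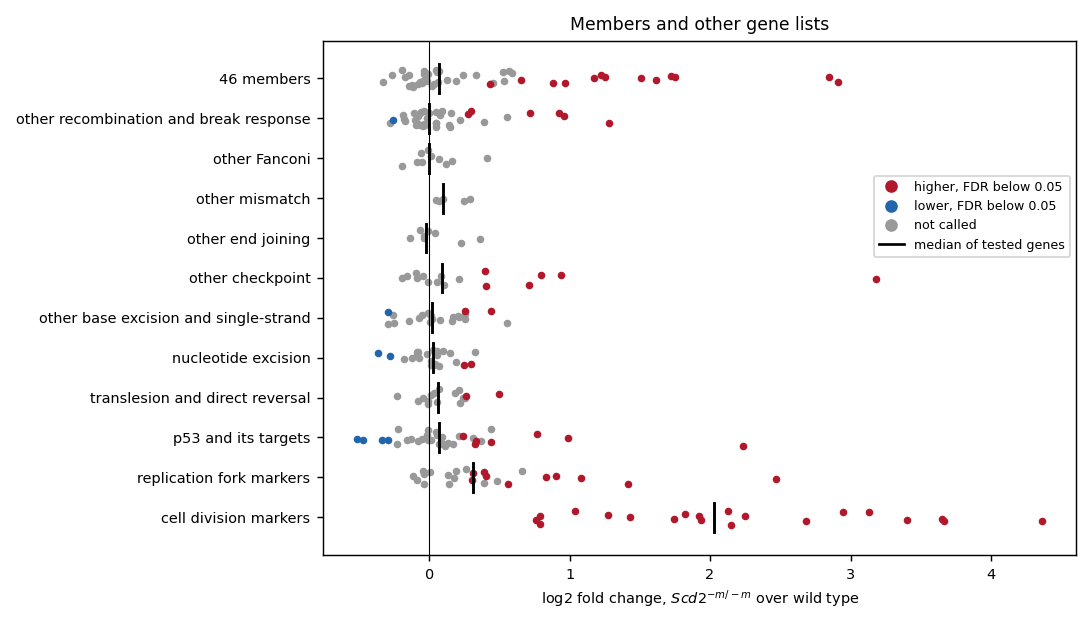
Log2 fold change (Scd2-m/-m over wild type) of every tested gene of each list, in red or blue where the FDR was below 0.05, with a black line at each median. The repair lists and the p53 list have medians close to 0 with a tail to the right in some, the replication fork markers have a median of 0.309, and the cell division markers have one of 2.03 with all 20 genes in red.

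Beside the repair genes, all 20 cell division markers and some replication fork markers rose in Scd2-m/-m macrophages. Of 24 replication fork markers 10 rose by edgeR, or 41.7%, beside 9.65% of all genes tested. By edgeR, DESeq2, limma-voom or at an unadjusted edgeR p under 0.05, 0 fell, and 5 of the 14 not called had a log2 fold change below 0. The summed level of the 24 was 358 to 399 CPM in wild-type and 441 to 453 CPM in Scd2-m/-m libraries. *Mcm5*, of the replicative helicase, rose by 0.41 and *Pcna*, the sliding clamp, by 0.31 (edgeR FDRs 0.0114 and 0.0121). *Mki67*, a general mark of cycling cells, had 24.6, 30.1 and 28.7 CPM in wild-type and 57.4, 55.2 and 58.8 CPM in Scd2-m/-m libraries, and *Top2a*, the topoisomerase that untangles chromosomes, had 6.89, 6.92 and 9.78 CPM and 25.7, 26.6 and 26.7 CPM. Neither overlapped, with log2 fold changes of 1.04 and 1.74. The 13 repair genes called had values of 0.434 to 2.914, a span cut from below by their choice as called genes. All 45 members tested spanned -0.329 to 2.914, with a median of 0.067. The cell division markers spanned 0.761 to 4.364, with a median of 2.03. The replication fork markers spanned -0.113 to 2.471, and *Neil3* and *Ankle1* lay above that span.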

How the data were processed

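RNA was sequenced from wild-type and Scd2-m/-m BMDMs, 3 libraries each, and the labels gave the genotype of every library. Libraries were poly(A)-selected. Reads were aligned with STAR to GRCm38 (Ensembl), and raw counts, 1 whole number per gene and library, were deposited by the authors. How reads were counted and whether strand was used is not stated. The deposited table of the authors' own comparison (fold changes, p-values and log2 CPM) was not used.

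Repeated entries (276 of 40757) were removed. edgeR 4.0.16 (R 4.3.3) was run on the counts with filterByExpr, TMM factors (0.9788 to 1.018), robust glmQLFit and glmQLFTest, with Benjamini-Hochberg adjustment over all genes tested. SE is the log2 fold change over the square root of F. Levels use a union of exons from GENCODE M21 where given per length. Same-numbered libraries did not deviate together (correlations of -0.0196 to 0.053), so the fit had no block. Alternatives were RLE and upper-quartile factors, DESeq2 1.42.0, limma-voom (limma 3.58.1), other filters, halved counts, a block, leaving out each library, and an FDR of 0.01. The test was checked on simulated counts.

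The members and lists were chosen with earlier results of these data known. Values in every library were given for called members with an absolute log2 fold change above 1, in each class for the called member with the smallest p and the member with the highest level per length, and for the checkpoint kinases. In each further repair list the calls with the smallest p were named, at most 3 (5 for the p53 list, with *Trp53*, *Cdkn1a* and *Mdm2*). For the replication fork and cell division lists *Mcm5*, *Pcna*, *Mki67* and *Top2a* were named, whatever their p. Values per library for *Brca2*, *Brip1*, *Rad51b* and *Timeless*, and the naming of *Dclre1c* and of genes whose exons overlap members, were added after their values were seen. Some genes that this rule names are not reported here.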

Additional observations from a re-analysis of the deposited data

How the results depend on the processing

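The number of members called higher was 10 to 14 over the alternatives and 0 were lower under any of them. All 13 calls were kept with RLE or upper-quartile factors, DESeq2, limma-voom, no filter, halved counts and the replicate block. With at least 10 counts in every library, *Ankle1*, *Rad51ap1* and *Xrcc5* were no longer tested, and *Timeless* was called there, without a filter and with halved counts. On leaving out 1 library, 10 to 14 members were called. Of 235 alternative values for single members, 222 kept direction and side of the threshold and 10, all for *Rad18*, *Rad54b* and *Xrcc5* with a library left out, lost the call. *Atm* changed sign in 3, and lay between -0.065 and 0.019 with a library left out. The other repair genes called numbered 7 to 15 higher and 1 to 6 lower with a library left out, and 7 and 1 at an FDR below 0.01. The p53 genes called numbered 4 to 8 higher and 2 to 6 lower with a library left out, and 4 and 2 at an FDR below 0.01. *Scd2* was called by limma-voom at -0.617 and was at -0.83 to -0.476 with a library left out. With the replicate number as a block, 13 members were called and the counts of the other repair genes and of the p53 genes stayed within 1.5 times those given, so it changed no call among the members, and it called 2974 genes in all where 2585 were called without it. Leaving out wild-type replicate 2 left 1490 calls over all genes and leaving out Scd2-m/-m replicate 2 left 1440. The causes were not tested.

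Members below 1 CPM rest on few counts. Of counts from 1 to 20, 60.9% to 64.9% were even in each library, and how many reads make 1 count is not stated. Of the 32 members tested and not called, 28 had a 95% interval within a log2 fold change of 1 on either side of 0, and *Exo1*, *Rad51c*, *Fancb* and *Chek1* did not.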
